A study of Homo sapiens with 16 samples.

Results

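The RNA of 10 Kruppel-like factor genes, KLF2, KLF3, KLF4, KLF6, KLF7, KLF9, KLF10, KLF11, KLF12 and KLF13, was followed in Nalm6, a human cell line of B-cell precursor acute lymphoblastic leukaemia. A probe set counted for a member if the platform annotation gave it that gene and no other, and the brightest such probe set over the 16 arrays stood for the gene. All 10 members were measured, by 35 probe sets, among 18132 genes and 44988 one-gene probe sets in all. The 16 Affymetrix PrimeView arrays of total RNA fell into 4 groups of 4. These were cells labelled as carrying active, overexpressed CASP1 and given prednisolone, the same cells untreated, control cells given prednisolone, and control cells untreated. Prednisolone, a synthetic glucocorticoid, was given for 24 hours at a dose the labels leave out. The protocol of the labels names prednisolone, and the sample labels spell the treatment as a form of prednisone. The medium of all groups was RPMI1640 with glutamine and serum. The labels do not say how CASP1 was introduced or whether either line is a clone. The title of the series frames the question as resistance of leukaemia cells to glucocorticoids.

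Kruppel-like factors are transcription factors with zinc fingers at the carboxyl end that bind GC-rich and CACCC sequences. KLF2, KLF4, KLF6 and KLF7 are mostly activators, KLF3 and KLF12 are repressors that bind the corepressor CtBP, and KLF9, KLF10, KLF11 and KLF13 recruit the SIN3 corepressor complex. In lymphocytes KLF2 is known for keeping resting cells out of the cell cycle and for directing their traffic, and KLF9 is a known target of the glucocorticoid receptor in several tissues. Glucocorticoids such as prednisolone enter the cell and activate this receptor, itself a transcription factor, and in leukaemic B precursors they are a mainstay of therapy.

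Signals are log2 RMA values, on which 1 unit is a doubling, and differences were taken within a probe set only. Levels of different probe sets, as for the cell type markers below, are given as a description. Calls rest on limma's moderated test, at an adjusted p under 0.05 over all 18132 genes. Nothing in the labels says whether the arrays of a group hold separate cultures, so the p-values cover the spread between arrays, which may be technical. RNA came from whole cultures, so a change in every cell and a change in the share of cells that respond cannot be told apart. Array medians lay between 4.85 and 4.93, and correlations across genes within a group between 0.9853 and 0.9978. The arrays numbered 1 stood apart. In each of the 4 groups, the array numbered 1 had the lowest mean correlation with its group. These correlations ran from 0.986 to 0.9933, against 0.9923 to 0.9963 for the other arrays. The 9 measured B precursor markers had group means between 6.45 and 13, and the 4 measured markers each of T cells, myeloid cells and erythroid cells had group means no higher than 4.24, 4.43 and 5.16. Of the 6 glucocorticoid response genes used as a check, 5 were called higher after prednisolone in both lines, NR3C1, TSC22D3, FKBP5, PER1 and ZBTB16. DUSP1 was called lower in both lines, opposite to the other 5. CASP1 itself went against the label. Its signal was 5.02 ± 0.26 in treated and 5.69 ± 0.25 in untreated cells labelled CASP1, against 6.95 ± 0.097 in treated and 7.75 ± 0.15 in untreated control cells (SD, n = 4 each). The differences were -1.93 with prednisolone (adjusted p = 5.1e-08) and -2.06 without (adjusted p = 2.3e-08). These values are from the brightest CASP1 probe set only, and whether it detects the introduced CASP1 RNA was not tested. Every direction between the lines below follows the labels, and the signal of this probe set runs opposite to them.

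The upstream windows of 4 members that rose with prednisolone in both lines are shown, because these genes moved together. Each window is the 250 bases before the RefSeq start of the gene in GRCh38.p14, read 5′ to 3′ on the strand of the gene. Capitals mark a match to a loose MEF2 pattern in KLF2 (CTA and TAG, 4 bases apart) and a CACCC box in KLF13. The KLF2 window is chr19:16324576-16324825 (plus strand), the KLF6 window chr10:3785210-3785459 (minus strand), the KLF9 window chr9:70414658-70414907 (minus strand) and the KLF13 window chr15:31326585-31326834 (plus strand).
KLF2: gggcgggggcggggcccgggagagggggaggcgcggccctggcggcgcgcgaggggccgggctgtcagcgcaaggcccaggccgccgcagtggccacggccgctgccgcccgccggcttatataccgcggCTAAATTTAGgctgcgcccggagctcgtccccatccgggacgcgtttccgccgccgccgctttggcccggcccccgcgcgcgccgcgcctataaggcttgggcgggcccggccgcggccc
KLF6: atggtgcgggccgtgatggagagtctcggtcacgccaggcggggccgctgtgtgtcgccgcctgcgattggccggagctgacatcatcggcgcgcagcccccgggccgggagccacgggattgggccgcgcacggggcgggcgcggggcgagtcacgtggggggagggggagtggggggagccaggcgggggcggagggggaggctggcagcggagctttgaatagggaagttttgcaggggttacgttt
KLF9: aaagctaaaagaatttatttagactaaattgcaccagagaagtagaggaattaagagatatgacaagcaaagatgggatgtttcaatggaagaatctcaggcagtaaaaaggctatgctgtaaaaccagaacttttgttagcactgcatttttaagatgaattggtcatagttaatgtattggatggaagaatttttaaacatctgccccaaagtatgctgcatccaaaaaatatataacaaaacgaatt
KLF13: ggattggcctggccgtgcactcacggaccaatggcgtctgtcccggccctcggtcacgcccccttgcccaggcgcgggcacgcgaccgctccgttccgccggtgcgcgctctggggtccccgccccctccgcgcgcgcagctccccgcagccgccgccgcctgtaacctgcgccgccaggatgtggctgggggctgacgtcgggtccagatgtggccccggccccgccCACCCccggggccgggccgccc

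Of the 10 members, 8 had windows in the RefSeq table, 15 in all, and KLF3 and KLF10 had none. Both strands were searched. The MEF2 match in the KLF2 window began 120 bases before the start, and MEF2 matches stood in 827 of all 35116 windows of this length (2.36%). Among the 15 windows, 1 of KLF11 and 1 of KLF12, genes not called for prednisolone, also held one. MEF2 proteins are known activators of KLF2 below the kinase ERK5. The CACCC box of the KLF13 window began 22 bases before the start, and 54.7% of all windows held this motif. The glucocorticoid receptor element, AGAACA and TGTTCT set 3 bases apart, was in 0 of the 15 windows and in 1 of the 35116. A looser form, AACA and TGTT set 3 bases apart, was also in 0 of the 15, and in 0.373% of all windows. The single arm AGAACA was found in 1 window each of KLF7 and KLF12, and in 12.4% of all windows. These are matches of letters near the start only, and receptor sites often lie far from promoters.

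Prednisolone raised 4 of the 10 members in cells labelled CASP1 and 5 in control cells, and none was called lower. KLF2 had the largest difference of the 10, 8.23-fold in cells labelled CASP1 and 21.2-fold in control cells. KLF9, KLF13 and KLF6 rose in both lines, by between 1.93-fold and 3.43-fold. KLF7 was not called in cells labelled CASP1 and rose 2.04-fold in control cells. KLF3, KLF4, KLF10, KLF11 and KLF12 were not called in either line. Against the 4 of 10 members called in cells labelled CASP1 stand 6.34% of all genes, 2.99% higher and 3.35% lower. Against the 5 of 10 in control cells stand 14.2% of all genes, 5.73% higher and 8.43% lower. The median difference of the 10 members was 0.25 in cells labelled CASP1, where that of all genes was 0.018, and 0.63 in control cells, where that of all genes was -0.015. The 2 comparisons share no arrays, but their tests share the residual variance of each gene, which was fitted over all arrays.

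**Figure D1:**
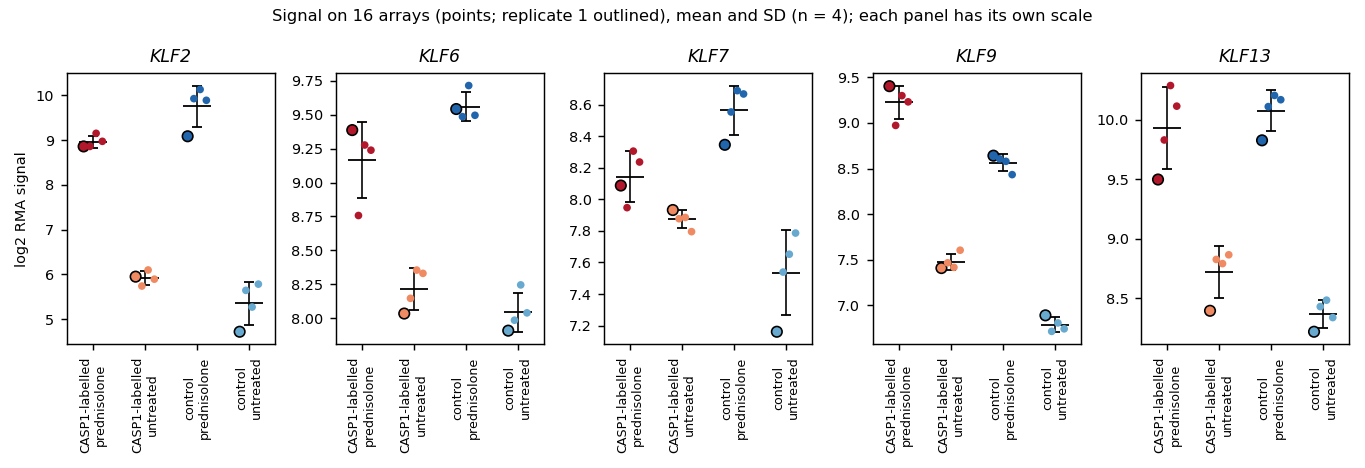
Log2 RMA signal of KLF2, KLF6, KLF7, KLF9 and KLF13 on each of the 16 arrays, by group, with the mean (long line) and SD (n = 4). Points are arrays, those numbered 1 are outlined, and each panel has its own axis, which does not start at 0. Treated arrays lie above the untreated arrays of their line in every panel, and the gap is small for KLF7 in cells labelled CASP1.

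Among the activators, KLF2 changed most. In cells labelled CASP1 its signal was 8.86, 8.86, 9.15 and 8.97 with prednisolone, against 5.95, 5.74, 6.10 and 5.89 without. In control cells it was 9.09, 9.93, 10.13 and 9.89 with prednisolone, against 4.72, 5.64, 5.27 and 5.78 without. The treated and untreated arrays were far apart in both lines, and the control array numbered 1 was the lowest of its group under both conditions. The log2 difference was 3.04 (SE 0.21, adjusted p = 4e-08) in cells labelled CASP1 and 4.41 (SE 0.21, adjusted p = 1.5e-10) in control cells. The second, dimmer KLF2 probe set was called in both lines too, with smaller differences of 1.16 and 2.07.

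KLF6 is a widely expressed factor. Its signal was 9.39, 8.76, 9.28 and 9.24 on treated and 8.04, 8.15, 8.36 and 8.33 on untreated arrays labelled CASP1. On control arrays it was 9.54, 9.49, 9.71 and 9.50 with prednisolone, against 7.91, 7.99, 8.25 and 8.04 without. No treated array overlapped an untreated one of its line, and array 2 was the lowest treated array labelled CASP1. The rise was 0.95 (SE 0.12, adjusted p = 6.9e-05) in cells labelled CASP1 and 1.51 (SE 0.12, 2.85-fold, adjusted p = 1.2e-07) in control cells. Of the 5 KLF6 probe sets, 3 were called higher in cells labelled CASP1 and 4 in control cells.

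KLF7, which in mice takes part in the development of neurons and affects blood progenitor cells, was called for prednisolone in control cells and not in cells labelled CASP1. In cells labelled CASP1 the treated arrays read 8.09, 7.95, 8.30 and 8.24, and the untreated ones 7.93, 7.88, 7.88 and 7.79. In control cells the treated arrays read 8.35, 8.55, 8.69 and 8.67, and the untreated ones 7.16, 7.54, 7.65 and 7.79. The groups did not overlap in either line, but in cells labelled CASP1 the highest untreated array, at 7.93, was just below the lowest treated one, at 7.95. The difference was 0.27 (SE 0.12, adjusted p = 0.24) in cells labelled CASP1 and 1.03 (SE 0.12, adjusted p = 7.9e-06) in control cells. All 4 KLF7 probe sets were called higher in control cells and 0 of 4 in cells labelled CASP1. KLF4, a close relative of KLF2 that restrains proliferation in B cells, had a signal between 3.41 and 3.98 on all 16 arrays. Its differences were 0.23 (adjusted p = 0.21) in cells labelled CASP1, where treated and untreated arrays did not overlap, and 0.12 (adjusted p = 0.53) in control cells.

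Among the factors that recruit SIN3, KLF9 and KLF13 rose and KLF10 and KLF11 were not called. KLF9 signal was 9.40, 8.97, 9.30 and 9.23 on treated and 7.41, 7.46, 7.42 and 7.60 on untreated arrays labelled CASP1. On control arrays it was 8.64, 8.61, 8.58 and 8.43 with prednisolone, against 6.89, 6.71, 6.80 and 6.74 without. The 4 groups were separate from each other and each was tight. The rises were nearly equal, 1.75 (SE 0.093, 3.38-fold, adjusted p = 1.5e-09) in cells labelled CASP1 and 1.78 (SE 0.093, 3.43-fold, adjusted p = 4.1e-10) in control cells. Of the 4 KLF9 probe sets, the 2 brightest were called in both lines and the 2 others in neither.

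KLF13 is known in T lymphocytes as an activator of the chemokine gene CCL5. On arrays labelled CASP1 it read 9.50, 9.83, 10.29 and 10.11 with prednisolone, against 8.39, 8.83, 8.79 and 8.86 without. On control arrays it read 9.83, 10.11, 10.20 and 10.17 with prednisolone, against 8.22, 8.43, 8.48 and 8.34 without. The array numbered 1 was the lowest in all 4 groups on this probe set, and treated and untreated arrays were separate all the same. On the second, dimmer KLF13 probe set the array numbered 1 was the lowest in no group. Among treated arrays labelled CASP1 it was the highest there, at 8.08. The rise was 1.21 (SE 0.15, 2.32-fold, adjusted p = 3.3e-05) in cells labelled CASP1 and 1.71 (SE 0.15, 3.27-fold, adjusted p = 2.3e-07) in control cells. Both KLF13 probe sets were called in both lines.

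KLF10 and KLF11, first described as early genes of the TGF-beta response, did not pass the test for prednisolone. KLF10 differed by -0.002 (adjusted p = 1) in cells labelled CASP1 and by 0.24 (adjusted p = 0.14) in control cells. Without control treated array 3 the difference in control cells was 0.34, with adjusted p = 0.019. KLF11, at 4.62 to 5.40 over the 16 arrays, differed by 0.06 (adjusted p = 0.89) in cells labelled CASP1 and by -0.03 (adjusted p = 0.95) in control cells. The repressors that bind CtBP were not called either. KLF3 differed by -0.21 (adjusted p = 0.31) in cells labelled CASP1, where all 4 treated arrays lay below all 4 untreated ones, and by -0.05 (adjusted p = 0.87) in control cells. KLF12, at 7.13 to 7.68 over the 16 arrays, differed by -0.13 (adjusted p = 0.65) in cells labelled CASP1 and by 0.06 (adjusted p = 0.85) in control cells.

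**Figure D2:**
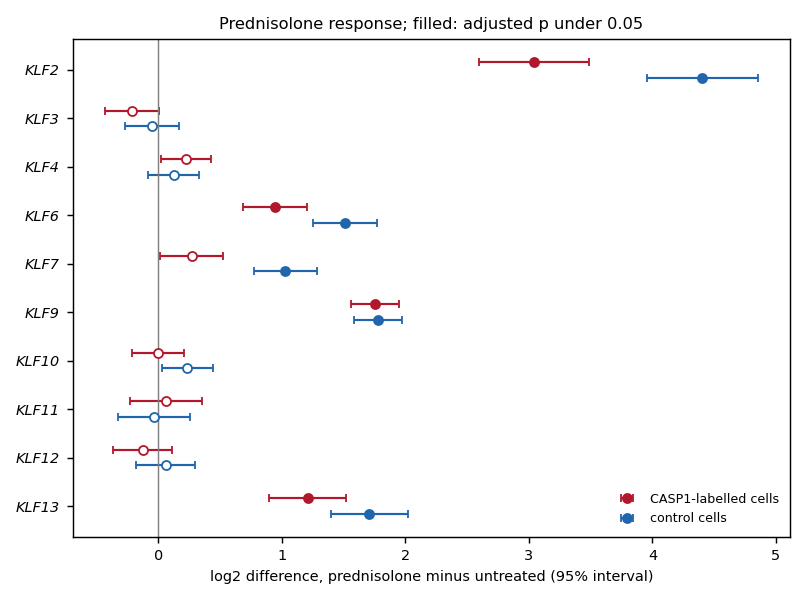
Prednisolone response of the 10 members as the log2 difference of treated minus untreated arrays, in cells labelled CASP1 (red) and in control cells (blue), with 95% intervals from the fit (4 arrays a group). Filled points had an adjusted p under 0.05. KLF2 lies farthest to the right in both lines, at 3.04 and 4.41, and the KLF9 points of the lines nearly coincide.

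**Figure D3:**
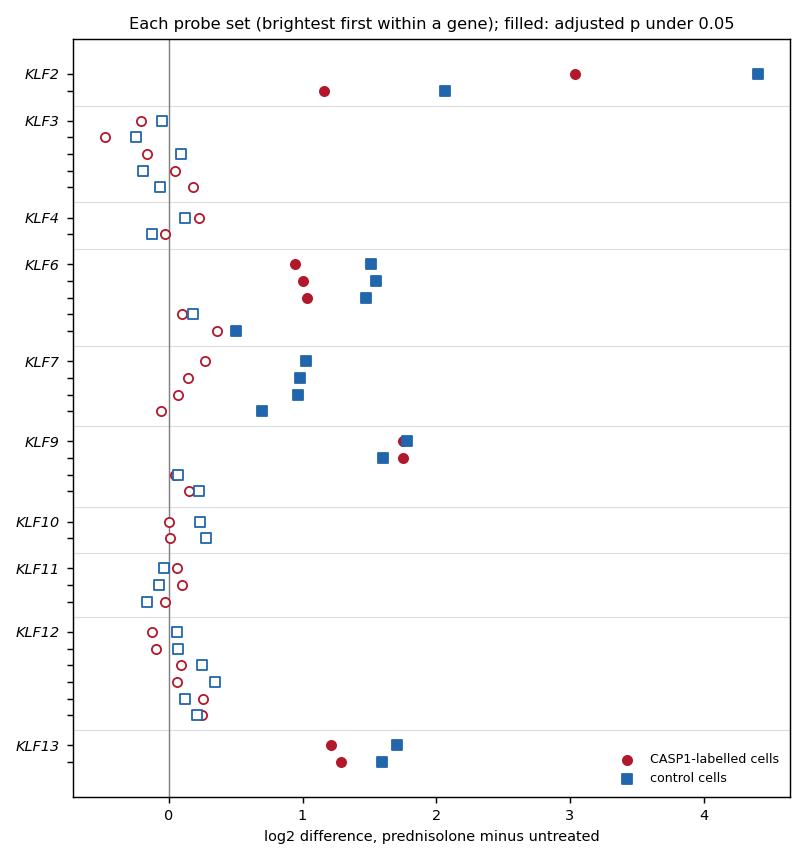
Prednisolone difference (log2) of each of the 35 probe sets of the members, brightest first within a gene, in cells labelled CASP1 (circles) and in control cells (squares). Filled symbols had an adjusted p under 0.05 over all one-gene probe sets. The probe sets of KLF2, KLF7 and KLF13 move the same way in control cells, and 2 of the 4 KLF9 probe sets lie near 0.

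Without prednisolone, 3 members were higher in cells labelled CASP1 than in control cells and none was called lower. KLF10 was 4.53-fold higher, KLF3 1.82-fold and KLF9 1.61-fold. With prednisolone the same 3 genes were higher, by 3.84-fold, 1.63-fold and 1.58-fold, and KLF2, KLF7 and KLF6 were called lower. Over all genes 14.1% were called between the untreated lines, 5.87% higher and 8.2% lower, against 3 of 10 members. Between the treated lines 16.4% of all genes were called, 7.88% higher and 8.52% lower, against 6 of 10 members. The median difference of the members was -0.05 with prednisolone, where that of all genes was 0.045, and 0.34 without, where that of all genes was 0.0066. The lines may differ in ways other than the construct, and these cannot be told apart here.

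KLF10 separated the lines most, whatever the treatment. With prednisolone it read 9.12, 8.93, 9.04 and 8.86 on arrays labelled CASP1, against 7.25, 7.16, 6.74 and 7.02 on control arrays. Without it the arrays labelled CASP1 read 8.99, 9.01, 8.98 and 8.97, against 6.83, 6.89, 6.76 and 6.75. The 8 arrays labelled CASP1 were all above the 8 control arrays, and the untreated ones labelled CASP1 lay closest together, between 8.97 and 9.01. The difference was 1.94 (SE 0.099, adjusted p = 6.1e-10) with prednisolone and 2.18 (SE 0.099, adjusted p = 1e-10) without. Both KLF10 probe sets were called, with differences of 1.94 and 1.99 with prednisolone and of 2.18 and 2.25 without. By their suffix, both are of the kind whose probes can match related transcripts, as are the brightest probe sets of KLF2, KLF3 and KLF12.

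KLF3, a repressor that in mice shapes B-cell development, showed the same order of the lines with a smaller gap. With prednisolone it read 6.62, 6.41, 6.44 and 6.56 on arrays labelled CASP1, against 5.87, 5.69, 5.68 and 5.96 on control arrays. Without it the values were 6.64, 6.73, 6.70 and 6.79 on arrays labelled CASP1, against 5.56, 6.07, 5.86 and 5.91 on control arrays. The lines did not overlap under either condition. The difference was 0.71 (SE 0.10, adjusted p = 0.00014) with prednisolone and 0.87 (SE 0.10, adjusted p = 2e-05) without. Of its 5 probe sets, 2 were called higher with prednisolone and 3 without.

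KLF9 differed between the lines by 0.66 (SE 0.093, adjusted p = 9.1e-05) with prednisolone and by 0.69 (SE 0.093, adjusted p = 7.1e-05) without, higher in cells labelled CASP1. The lowest array labelled CASP1 was above the highest control array in both conditions, and the same 2 of its 4 probe sets were called in each. KLF13 differed by -0.14 (adjusted p = 0.58) with prednisolone and by 0.35 (adjusted p = 0.14) without. Its untreated difference passed the threshold when probe sets were averaged, at 0.43 (adjusted p = 0.0024), and when the 4 arrays numbered 1 were left out, at 0.41 (adjusted p = 0.0082), or given a term in the fit (adjusted p = 0.012). KLF4, KLF11 and KLF12 were called in neither comparison, with differences between -0.15 and 0.14, although 1 of the 6 KLF12 probe sets was called lower with prednisolone, at -0.39.

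The 3 members that were lower in treated cells labelled CASP1 are all from the activator group. KLF2 was lower by a log2 difference of -0.80 (SE 0.21, 1.74-fold, adjusted p = 0.015), although the control array numbered 1 lay below the highest array labelled CASP1. Without control treated array 3 the difference was -0.67, with adjusted p = 0.055. KLF7 differed by -0.42 (SE 0.12, adjusted p = 0.023) and KLF6 by -0.39 (SE 0.12, adjusted p = 0.036), and neither overlapped between the lines. The KLF7 call was lost without control treated array 2, 3 or 4, or treated array 2 labelled CASP1, with values of -0.42 to -0.35 and adjusted p between 0.051 and 0.072. The KLF6 call was lost without any 1 of the 4 control treated arrays, without treated array 2 labelled CASP1, and with only the compared groups in the fit, with values of -0.42 to -0.26 and adjusted p between 0.056 and 0.11. In untreated cells these 3 genes were not called, with differences of 0.57 for KLF2 (adjusted p = 0.092), 0.34 for KLF7 (adjusted p = 0.076) and 0.17 for KLF6 (adjusted p = 0.46). Without control untreated array 4, KLF2 and KLF7 passed the threshold there, at 0.71 (adjusted p = 0.046) and 0.42 (adjusted p = 0.037). They also passed with a term for the arrays numbered 1, which leaves the differences as they are, with adjusted p = 0.02 for KLF2 and 0.031 for KLF7.

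**Figure D4:**
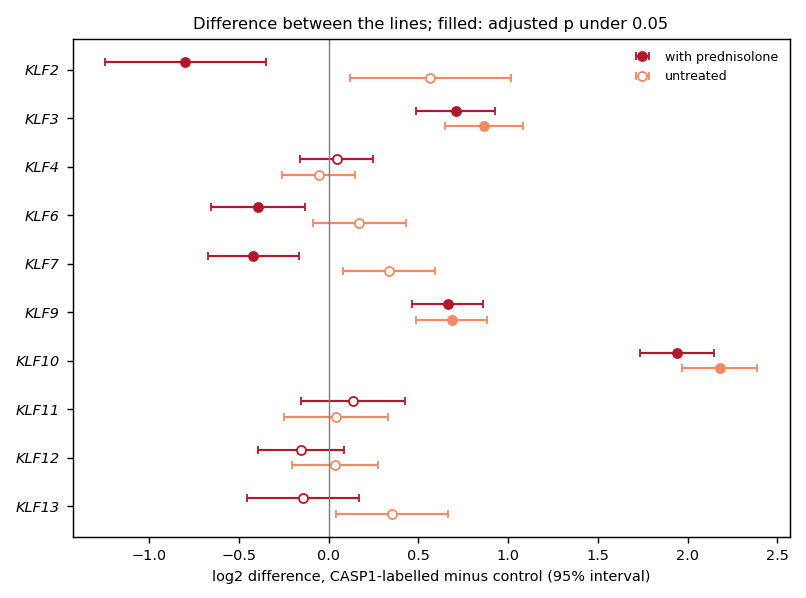
Difference between the lines for the 10 members, as log2 signal (cells labelled CASP1 minus control), with prednisolone (dark) and untreated (light), with 95% intervals from the fit (4 arrays a group). Filled points had an adjusted p under 0.05. KLF10 lies at 1.94 and 2.18, and the KLF2, KLF6 and KLF7 points are below 0 with prednisolone and above 0 without.

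**Figure D5:**
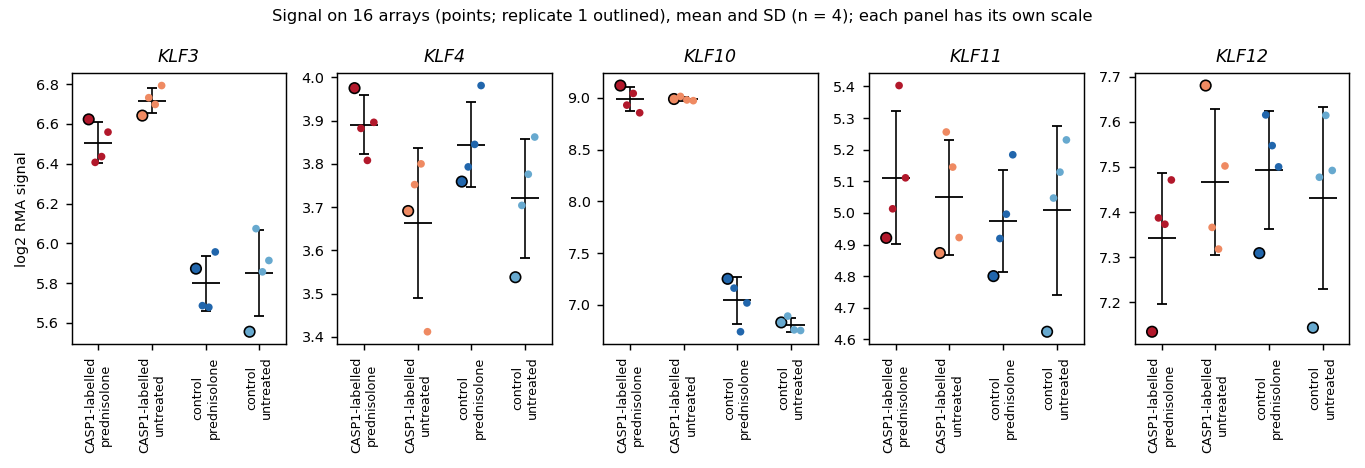
Log2 RMA signal of KLF3, KLF4, KLF10, KLF11 and KLF12 on each of the 16 arrays, by group, with the mean (long line) and SD (n = 4). Arrays numbered 1 are outlined, and each panel has its own axis, which does not start at 0. KLF10 and KLF3 separate by line under both conditions, KLF3 also by treatment in cells labelled CASP1, and KLF4, KLF11 and KLF12 overlap between the lines.

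The responses of the lines were compared directly, with the response of the control cells subtracted from that of cells labelled CASP1. It was called for 2 members, KLF2 and KLF7. Both had the smaller prednisolone difference in cells labelled CASP1, where that of KLF7 was not called. Over all genes 0.888% were called, 0.524% higher and 0.364% lower. KLF2 gave -1.36 (SE 0.30, adjusted p = 0.038), which makes its rise 2.58-fold smaller in cells labelled CASP1, and KLF7 gave -0.76 (SE 0.17, adjusted p = 0.045). KLF6 gave -0.57 (adjusted p = 0.18) and KLF13 -0.50 (adjusted p = 0.40), neither called. KLF9 gave -0.02, with a 95% interval of -0.30 to 0.25. The 5 other members lay between -0.24 and 0.10. These differences share all their arrays with the comparisons above. With each probe set tested on its own, 0 of the 35 were called. The KLF7 probe sets gave -0.90 to -0.75 and the 2 of KLF2 gave -1.36 and -0.91.

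Both calls lay near the threshold and were lost under many removals of 1 array. The KLF2 call was lost under 10 of the 16 removals of 1 array, with values of -1.43 to -1.24 and adjusted p of 0.057 to 0.094. These were untreated arrays 1, 2, 3 and 4 and treated arrays 2 and 4 labelled CASP1, control treated arrays 2, 3 and 4, and control untreated array 3. The KLF7 call was lost for the same arrays and for control untreated array 2, with values of -0.80 to -0.69 and adjusted p of 0.063 to 0.11. Without the 4 arrays numbered 1, both held, at -1.33 (adjusted p = 0.0015) for KLF2 and -0.67 (adjusted p = 0.015) for KLF7.

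The genes whose signal followed a member most closely over the 16 arrays are given as a description. The arrays share their 4 groups, so the points are not independent. Genes picked this way share the group pattern of the member largely by selection. For KLF2 they were SMIM3 (Pearson r = 0.987), AKAP13 (0.983) and CYTH3 (0.982). For KLF9 they were TIPARP (0.986), TSPAN14 (0.983) and SLC39A11 (0.982), whose 4 group means stood in the same order as those of KLF9. For KLF10 they were ARMCX5 (0.992), PRPS2 (0.984) and CFLAR (0.976), whose group means were higher in cells labelled CASP1 under both conditions. For KLF13 they were SOCS2 (0.981), DNMT3B (0.98) and SMIM3 (0.98).

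Of the 7 other KLF genes measured, KLF16 alone was called for prednisolone, with -0.37 (adjusted p = 0.025) in cells labelled CASP1 and -0.39 (adjusted p = 0.0084) in control cells. KLF15 alone was called between the treated lines, at -0.41 (adjusted p = 0.024). The median prednisolone difference of these 7 was -0.17 in cells labelled CASP1 and -0.001 in control cells, where that of all genes was 0.018 and -0.015. Of the 9 SP genes, which encode related factors for the same GC-rich sites, 1 was called lower in each of the 4 comparisons and none higher. These were SP4 for prednisolone in cells labelled CASP1 (-0.49, adjusted p = 0.0052), SP1 in control cells (-0.29, adjusted p = 0.046), and SP2 between the lines, with -0.79 treated (adjusted p = 2.2e-05) and -0.44 untreated (adjusted p = 0.0047). The SP median for prednisolone was -0.01 in cells labelled CASP1 and -0.07 in control cells. At most 1 call among 7 or 9 genes is no result about these lists, as the share of all genes called was 6.34% in cells labelled CASP1 and 14.2% in control cells for prednisolone, and 16.4% treated and 14.1% untreated between the lines.

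Genes of the corepressors that the repressor members use were called in both directions. Of 9, 2 rose and 2 fell with prednisolone in cells labelled CASP1, and 2 rose and 4 fell in control cells. Of all genes, 2.99% were called higher and 3.35% lower in cells labelled CASP1, and 5.73% higher and 8.43% lower in control cells. The median difference of the 9 was -0.26 in cells labelled CASP1 and -0.14 in control cells. That of all genes was 0.018 and -0.015. SAP30, a SIN3 complex subunit, rose by 0.66 (adjusted p = 0.017) in cells labelled CASP1 and by 1.06 (adjusted p = 0.00012) in control cells. SIN3B, a scaffold of the complex, rose by 0.52 (adjusted p = 0.037) in cells labelled CASP1 and by 0.70 (adjusted p = 0.0022) in control cells. SIN3A, the related scaffold, went the other way. It fell by 0.61 in control cells (adjusted p = 2e-04) and was not called in cells labelled CASP1, at -0.29 (adjusted p = 0.093). RBBP7, a histone-binding subunit, fell by 0.69 (adjusted p = 9e-05) in cells labelled CASP1 and by 0.98 (adjusted p = 6.6e-07) in control cells. CTBP2, a CtBP gene, was lower in cells labelled CASP1 by -0.89 with prednisolone (adjusted p = 6.7e-06) and -0.71 without (adjusted p = 5.8e-05). CTBP1, the other CtBP gene of the list, was not called between the lines, at 0.001 with prednisolone and -0.13 without.

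The known inputs and outputs of KLF2 were called in both directions. Of the 8 measured upstream genes, MEF2D alone was called for prednisolone in cells labelled CASP1, at -0.53 (adjusted p = 0.011). In control cells MEF2C fell by 0.65 (adjusted p = 0.00014) and FOXO1 rose by 0.43 (adjusted p = 0.0057). The median of the 8 was -0.04 in cells labelled CASP1 and 0.17 in control cells. Of the 9 measured genes known downstream of KLF2, CD69, S1PR1 and CDKN1A were called for prednisolone, and the median of the 9 was 0.03 in cells labelled CASP1 and 0.01 in control cells. CD69, an activation marker, rose by 2.31 (adjusted p = 0.0079) in cells labelled CASP1 and by 2.78 (adjusted p = 0.00066) in control cells. S1PR1, the egress receptor that KLF2 activates in T cells, fell by 0.76 in both lines, with adjusted p = 0.035 in cells labelled CASP1 and 0.018 in control cells. CDKN1A, a cell cycle inhibitor, fell in control cells by 1.03 (adjusted p = 0.011), and with prednisolone it was higher in cells labelled CASP1 by 1.58 (adjusted p = 0.00044). S1PR4 was lower there by -0.94 (adjusted p = 0.00023). In all, 3 of the 9 were higher and 1 lower in cells labelled CASP1 with prednisolone, and 2 were higher without. Between the lines, 7.88% of all genes were called higher and 8.52% lower with prednisolone, and 5.87% higher and 8.2% lower without. For the prednisolone response, 6.34% of all genes were called in cells labelled CASP1 and 14.2% in control cells. The all-gene medians of that response were 0.018 and -0.015.

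Genes of TGF-beta signalling, the pathway that named KLF10 and KLF11, differed between the lines in both directions. Of 9, 2 were higher and 3 lower in cells labelled CASP1 with prednisolone, and 2 were higher and 2 lower without. Of all genes, 7.88% were called higher and 8.52% lower with prednisolone, and 5.87% higher and 8.2% lower without. The median of the 9 was -0.01 with prednisolone and 0.10 without, where that of all genes was 0.045 and 0.0066. SMAD7, an inhibitor of the pathway, was higher without prednisolone by 1.10 (adjusted p = 3e-06), and SMAD3, a signal carrier, by 0.75 with (adjusted p = 0.0019) and 1.10 without (adjusted p = 7.1e-05). SMAD2, also a carrier, was lower by -0.70 with (adjusted p = 7.2e-06) and -0.58 without (adjusted p = 4.3e-05). TGFBR3, a coreceptor, rose with prednisolone by 1.66 (adjusted p = 3.5e-07) in control cells, and its response differed between the lines by -1.22 (adjusted p = 0.0081). SMAD7 rose by 1.15 (adjusted p = 6.6e-07) in control cells, with a difference between the responses of -0.85 (adjusted p = 0.011).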

How the data were processed

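RNA was measured on 16 arrays, 4 in each of the 4 groups, which were taken from the labels. The authors deposited log2 signals of 49395 probe sets, which the submitters' processing notes credit to RMA. The program and its version are not given there. RMA puts all arrays on 1 scale, which hides any change in total RNA per cell, and the number of arrays limits the precision. The platform annotation gave 44988 probe sets 1 gene, 1832 several, 2473 none, and 102 were controls. The brightest one-gene probe set by its mean over all arrays stood for a gene, which left 18132 genes.

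A limma model (3.58.1, R 4.3.3) was fitted to every gene, with a mean for each group over 16 arrays (12 residual degrees of freedom, 5.46 prior ones, eBayes without trend), two-sided, with Benjamini-Hochberg adjustment over all genes in each of 5 comparisons. The threshold was an adjusted p of 0.05. The procedure was tested on simulated data. No 2 arrays held identical values. The alternatives were the mean of a gene's probe sets, each probe set on its own, quantile normalization, centring on the 75th percentile, leaving out the dimmest 30% of genes, a trended and robust variance, only the groups compared, each array left out in turn, the 4 arrays numbered 1 left out or given a term, and the replicate number as a block. Upstream windows came from RefSeq (GRCh38.p14), and motifs were counted with Python 3.11.15.

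The members and gene lists were chosen with earlier results of these data known. Named genes were all members, CASP1, the glucocorticoid response genes, up to 4 called genes of a list by the size of the difference, and the 3 genes most correlated with each of the 4 members of widest range. SIN3A and CTBP1 were named in addition, beside SIN3B and CTBP2. The lists were other KLF genes, SP genes, corepressor genes, genes upstream and downstream of KLF2, TGF-beta genes, glucocorticoid response genes and markers of B precursors, T cells, myeloid cells and erythroid cells. Some genes named in a list are not reported here.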

Additional observations from a re-analysis of the deposited data

Results flagged for a closer look

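KLF13 had 1 array far from the others of its group. Among untreated cells labelled CASP1, the array numbered 1 read 8.395, and the other 3 read 8.79 to 8.87. It was the only such case among the 40 groups of 4 arrays examined (10 members in 4 groups), and chance gives about 1 in 20. The array numbered 1 was also the lowest KLF13 reading in each of the other groups. These readings are from the brightest KLF13 probe set. On the second one, the array numbered 1 read 6.356 among untreated cells labelled CASP1, where the others read 6.307 to 6.412. The prednisolone response of KLF2 differed between the lines by -1.364 on the log2 scale (cells labelled CASP1 minus control cells, limma adjusted p = 0.038). That of KLF7 differed by -0.757 (limma adjusted p = 0.045). The prednisolone difference of both was smaller in cells labelled CASP1, where that of KLF7 was not called. The cause was not tested.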

How the results depend on the processing

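Of the 20 called results of members, 15 kept their call and direction under every alternative run on 1 value per gene. Requiring all probe sets of a gene to be called is stricter, and its lower counts are given separately. The 5 others, KLF2, KLF6 and KLF7 between the treated lines and KLF2 and KLF7 in the comparison of responses, are given with their values in the text, and the KLF7 difference in response also lost its call with the mean of its probe sets, at -0.81 (adjusted p = 0.063). The cause was not tested. The range over single arrays left out was 4 to 4 members called for prednisolone in cells labelled CASP1 and 5 to 6 in control cells, 3 to 6 between the treated lines and 3 to 5 between the untreated lines, and 0 to 2 in the comparison of responses. The lowest count between the treated lines came without control treated array 3, and the highest between the untreated lines without control untreated array 4. For all genes the ranges were 791 to 1292, 2035 to 2556, 2244 to 2877, 1985 to 2369 and 96 to 268 in the same order, against 1150, 2568, 2974, 2552 and 161 with all arrays. The comparison of responses fell to 96 to 103 genes without control treated array 3 or 4, control untreated array 3 or 4, or untreated array 2 or 3 labelled CASP1, and reached 268 without treated array 1 labelled CASP1. Members called in the comparison of responses numbered 1 with the mean of probe sets and 0 with any or all probe sets required. With all probe sets of a gene required, 2 members were called for prednisolone in cells labelled CASP1, 3 in control cells, 2 between the treated lines and 1 between the untreated lines. With only the groups compared, 688 genes were called for prednisolone in cells labelled CASP1. Without the 4 arrays numbered 1, 2161 genes were called for prednisolone in cells labelled CASP1, 3969 in control cells, 3876 between the untreated lines and 727 in the comparison of responses. A term for the arrays numbered 1 gave 1793 genes for prednisolone in cells labelled CASP1, 392 in the comparison of responses and 6 members between the untreated lines.

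Equal replicate numbers were not taken as a pairing. Correlations of deviations between same-numbered arrays of different groups ran from 0.191 to 0.507 for number 1, and from -0.046 to 0.258, -0.053 to 0.257 and -0.116 to 0.26 for numbers 2, 3 and 4. With the replicate block, 6 members were called between the untreated lines, KLF2, KLF7 and KLF13 in addition (adjusted p = 0.034, 0.035 and 0.016), and 289 genes in the comparison of responses. KLF7 between the untreated lines also passed with quantile normalization, at 0.38 (adjusted p = 0.032), and with the 75th percentile, at 0.38 (adjusted p = 0.042).

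Signs turned in 32 cases, all of uncalled results of size up to 0.145, and none was called under the alternative. With the mean of probe sets these were KLF4 for prednisolone in control cells (-0.0014), KLF10 and KLF12 in cells labelled CASP1 (0.0050 and 0.073), KLF12 between the untreated lines (-0.0041), KLF13 between the treated lines (0.024) and KLF9 in the comparison of responses (0.0093). With quantile normalization they were KLF10 in cells labelled CASP1 (0.037) and KLF4 between the treated lines (-0.00029), and with the 75th percentile KLF10 again (0.011). Without the arrays numbered 1 they were KLF12 in cells labelled CASP1 (0.015), KLF11 and KLF12 between the untreated lines (-0.028 and -0.13) and KLF4 between the treated lines (-0.011). With 1 array left out, prednisolone differences ranged from -0.046 to 0.042 for KLF10 and -0.034 to 0.13 for KLF11 in cells labelled CASP1. In control cells they ranged from -0.16 to 0.041 for KLF11, -0.035 to 0.12 for KLF12 and -0.15 to 0.023 for KLF3. Between the untreated lines the ranges were -0.087 to 0.12 for KLF11, -0.061 to 0.095 for KLF12 and -0.12 to 0.028 for KLF4, and in the comparison of responses -0.00073 to 0.22 for KLF11 and -0.083 to 0.061 for KLF9. Arrays give no depth, and dim probe sets such as those of KLF4 limit what small differences can be seen.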
